A study of Rattus norvegicus with 9 samples.

Results

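Neurotransmitter receptors are the proteins through which cells sense glutamate, GABA, glycine, acetylcholine and serotonin. The receptor genes were chosen by gene symbol alone, taking every symbol that begins like those of the ionotropic and metabotropic glutamate receptors, the GABA-A, glycine, nicotinic and muscarinic receptors and the serotonin receptors. The symbols matched 84 of 29214 array features and 83 of the 14506 genes measured. Of these genes, 79 encode receptor subunits and 4 do not: Htra1, Htra2 and Htra4, which are serine peptidases, and Grid2ip, which binds a glutamate receptor. The receptor genes comprise 7 NMDA, 4 AMPA, 5 kainate and 1 delta subunit, 7 metabotropic glutamate receptors, 16 GABA-A and 4 glycine receptor subunits, 16 nicotinic subunits, 5 muscarinic receptors and 14 serotonin receptors. The rule uses no measured value, apart from taking the feature with the highest mean where a gene had more than 1. Grid1 was the only member with 2 features.

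Transcripts were measured with whole-transcript arrays (Affymetrix Rat Gene 1.0 ST) in cells cultured from adult Sprague Dawley rats, with 3 numbered samples in each group and 9 arrays in all. Nothing in the labels says that the samples of a group came from separate animals, so p-values measure the spread between these samples, which may be technical. The groups are Schwann cells grown out of skin-derived precursors (SKPs), Schwann cells isolated from sciatic nerve, and SKPs themselves, sphere-forming cells that were isolated from skin of the dorsal trunk. The tissue label reads dermis for every sample, the nerve cells included. Both Schwann cell cultures were kept in Schwann cell growth medium, passaged and taken at confluence, while SKPs were taken as passaged spheres, so the SKP comparisons also hold a difference in culture. The labels call the SKP arrays a reanalysis of arrays deposited earlier, so a batch of arrays and the SKP group cannot be told apart. The labels name no sorting step, and in bulk samples fewer cells of a type and less RNA per cell cannot be told apart.

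Ionotropic receptors are ion channels assembled from several subunits, so a channel depends on which subunit genes a cell transcribes together. Metabotropic glutamate, muscarinic and most serotonin receptors act through G proteins instead. Schwann cells, the glia of peripheral nerves, lie beside axons that release glutamate, ATP and acetylcholine, and glia of many kinds are known to carry receptors for these transmitters. An array measures transcript and not channel, and as no detection calls were used here, no receptor was called present or absent.

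The markers of the labelled cell types separated the groups, and the scale of the arrays did too. The mean log2 level of 8 Schwann cell markers, among them Sox10, Erbb3 and Ngfr, lay between 10.46 and 11.37 in SKP-derived Schwann cells and between 11.14 and 11.3 in nerve Schwann cells, against 5.44 to 5.75 in SKPs (after cyclic loess, an intensity-dependent alignment of the arrays). As deposited, the array medians were 6.33 to 6.44 in SKP-derived Schwann cells, 6.82 to 6.87 in nerve Schwann cells and 6.2 to 6.27 in SKPs. In nerve Schwann cells 13.7% of features had the same deposited value in at least 2 of the 3 arrays, against 0.178% in SKP-derived Schwann cells and 0.116% in SKPs. This touches the receptors, since 20 of the 79 were tied in this way in nerve Schwann cells, against 1 in SKP-derived Schwann cells and 0 in SKPs. Gabrb1, Gria4, Htr1a and Htr2c had a single value in all 3 nerve arrays. The median SD of the receptor genes was 0.0876 in nerve Schwann cells, against 0.247 in SKP-derived Schwann cells and 0.236 in SKPs. Differences were therefore tested on 4 scalings (as deposited, median-centred, after cyclic loess and after quantile normalisation). A gene is called here where limma's adjusted p was under 0.05 in the same direction on all 4, and counts on a single scaling are named as such.

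Both kinds of Schwann cell differed from SKPs in a minority of the receptor genes. In SKP-derived Schwann cells 9 receptors were called higher and 7 lower than in SKPs, which is 11.4% and 8.86% of the 79, beside 14.3% higher and 21.4% lower over all 14506 genes. In nerve Schwann cells 17 were called higher and 5 lower than in SKPs, which is 21.5% and 6.33%, beside 15.3% and 14.9% over all genes. In SKP-derived against nerve Schwann cells 0 receptors were called higher and 2 lower, beside 0.476% and 0.352% over all genes. At an unadjusted p under 0.05 in the same limma fits, 2 receptors were higher and 56 lower in SKP-derived than in nerve Schwann cells as deposited, and 8 higher and 7 lower after cyclic loess. The share of all genes at this threshold was not counted. Their median difference was -0.45 as deposited and -0.02 after cyclic loess, so these counts are not read as particular to the receptors. The 9 genes called higher in SKP-derived Schwann cells were all among the 17 of nerve Schwann cells, and the 5 called lower in nerve Schwann cells were all among the 7 of SKP-derived Schwann cells. No receptor was called in opposite directions. The comparisons with SKPs share the 3 SKP arrays, which favours such overlap for any gene. The overlap was not counted over all genes, so it is not read as particular to the receptors.

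The scaling set most of the counts that involve nerve Schwann cells. As deposited, 15 receptors were higher and 7 lower in SKP-derived Schwann cells than in SKPs, beside 19.3% and 22.3% of all genes. In nerve Schwann cells 59 were higher and 5 lower than in SKPs as deposited, beside 49.7% and 14.9% of all genes. In SKP-derived against nerve Schwann cells 0 were higher and 52 lower as deposited, beside 1.33% and 42.3% of all genes. After cyclic loess the counts became 9 higher and 8 lower (SKP-derived Schwann cells minus SKPs, beside 18.6% and 23.9% of all genes), 18 higher and 9 lower (nerve Schwann cells minus SKPs, beside 22.4% and 25.6%), and 0 higher and 2 lower (SKP-derived minus nerve Schwann cells, beside 0.731% and 0.6%). The median difference of the 79 receptors, SKP-derived minus nerve Schwann cells, was -0.62 as deposited and -0.04 after cyclic loess, beside -0.45 and -0.02 over all genes. For SKP-derived Schwann cells minus SKPs the receptors' median was 0.19 as deposited and 0.12 after cyclic loess, beside -0.01 and -0.03 over all genes. For nerve Schwann cells minus SKPs it was 0.73 and 0.04, beside 0.46 and -0.03 over all genes.

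**Figure D1:**
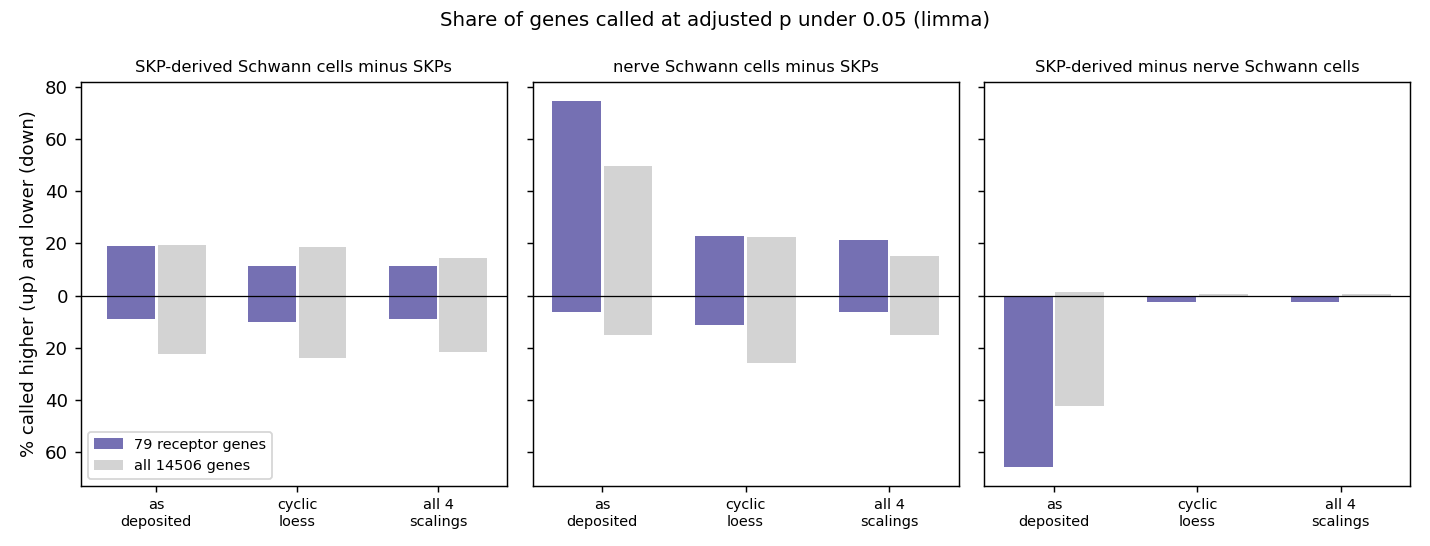
Share of the 79 receptor genes (purple bars) and of all 14506 genes (grey bars) called higher (up) and lower (down) at an adjusted p under 0.05, in percent, for each comparison and each scaling rule. The receptor bars for nerve Schwann cells minus SKPs fall from 74.7% higher as deposited to 22.8% after cyclic loess, and the bars for SKP-derived minus nerve Schwann cells shrink from 65.8% lower to 2.53%.

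NMDA receptors are glutamate-gated, calcium-permeable channels in which an obligatory Grin1 subunit joins with Grin2 or Grin3 subunits. Of the 7 genes, Grin2b, which encodes the GluN2B subunit that is common in the developing brain, was called higher in both kinds of Schwann cell. Its deposited log2 level was 8.07, 5.82 and 6.92 in SKP-derived Schwann cells and 10.15, 10.14 and 9.78 in nerve Schwann cells, against 3.98, 4.49 and 4.09 in SKPs. The 3 groups did not overlap, and the SKP-derived cultures spread widely (6.93 ± 1.13, SD, n = 3) where the nerve cultures did not (10.02 ± 0.21, SD, n = 3). After cyclic loess, Grin2b was 6.63-fold higher in SKP-derived Schwann cells than in SKPs (log2 difference 2.73, SE 0.46, adjusted p = 0.00136) and 41.7-fold higher in nerve Schwann cells than in SKPs (5.38, SE 0.46, adjusted p = 3.59e-05). It was 6.29-fold lower in SKP-derived than in nerve Schwann cells.

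The other 6 NMDA subunit genes were called in no comparison. Grin1, without which no NMDA receptor forms, stood at 5.21, 4.76 and 5.85 in SKP-derived Schwann cells and 5.13, 5.17 and 5.4 in nerve Schwann cells, against 5.38, 5.17 and 5.34 in SKPs after cyclic loess. Its groups overlapped, with differences from SKPs of -0.02 (SE 0.24, adjusted p = 0.955) in SKP-derived and -0.06 (SE 0.24, adjusted p = 0.844) in nerve Schwann cells. The largest cyclic loess difference of any comparison among these 6 was 0.34, for Grin2d in nerve Schwann cells.

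**Figure D2:**
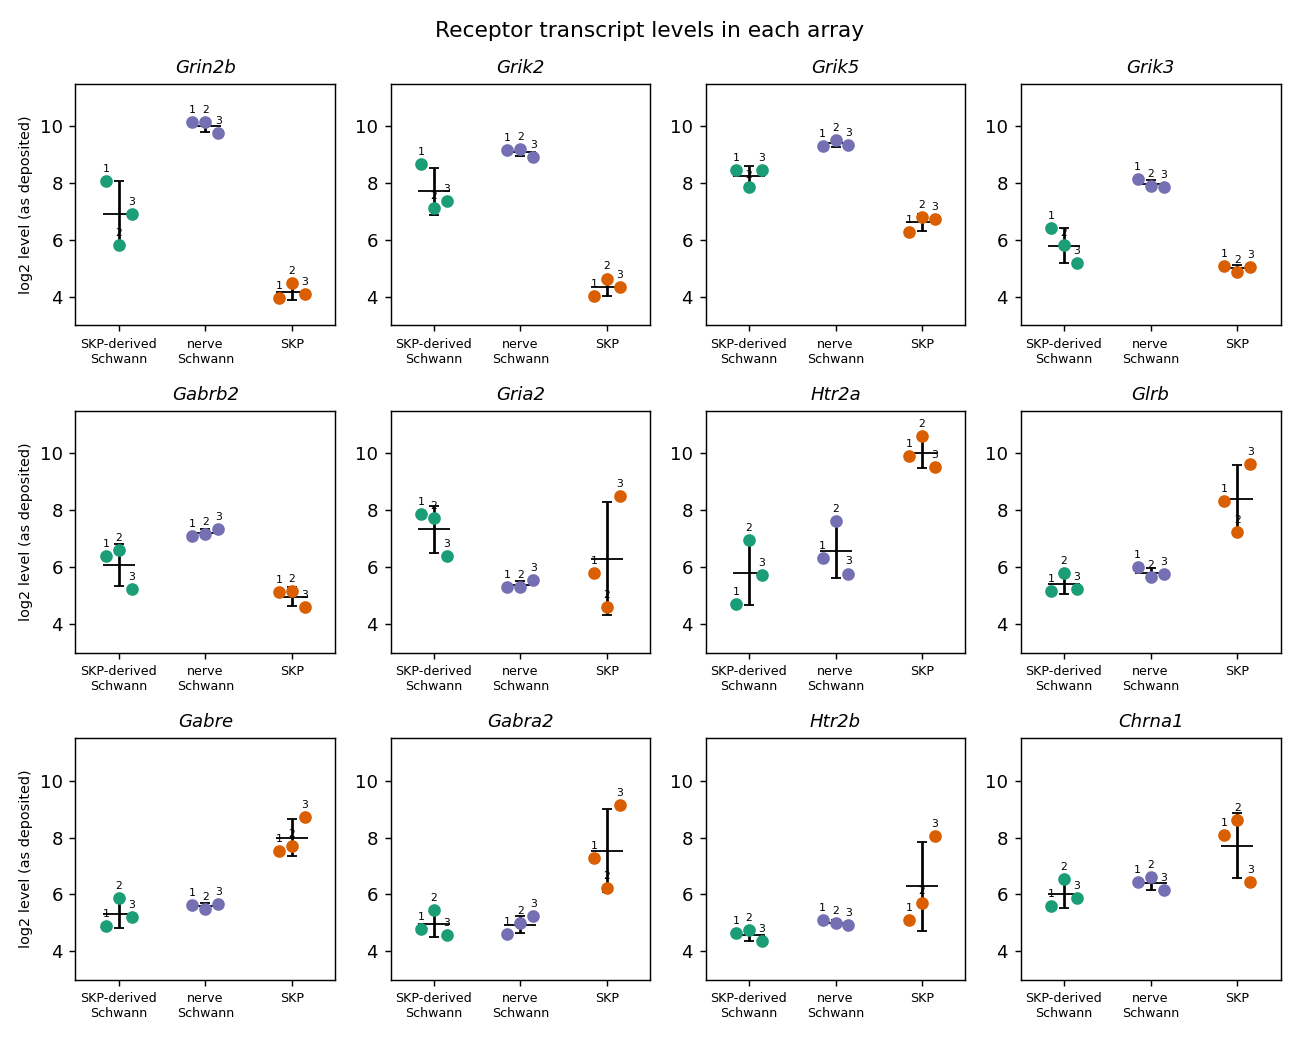
Deposited log2 level of 12 receptor genes in each of the 9 arrays, by group; points are arrays with their replicate number, the long bar is the mean and the error bar the SD (n = 3). Grin2b, Grik2, Grik5 and Grik3 show 3 separate groups with SKPs lowest, while Htr2a, Glrb, Gabre and Gabra2 are highest in SKPs.

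Kainate receptors are glutamate-gated channels in which Grik1, Grik2 or Grik3 (GluK1 to GluK3) can form a channel alone, while Grik4 and Grik5 (GluK4 and GluK5) need one of them as partner. Grik2 and its partner Grik5 were called higher in both kinds of Schwann cell. Grik2 stood at 8.67, 7.12 and 7.37 in SKP-derived Schwann cells and 9.16, 9.2 and 8.92 in nerve Schwann cells, against 4.03, 4.65 and 4.35 in SKPs as deposited. Grik5 stood at 8.48, 7.87 and 8.45 in SKP-derived Schwann cells and 9.32, 9.53 and 9.35 in nerve Schwann cells, against 6.29, 6.82 and 6.75 in SKPs. For both genes every Schwann cell array lay above every SKP array, and as deposited every nerve array lay above every SKP-derived one. After cyclic loess Grik5 kept this order, while for Grik2 SKP-derived array 1 (8.82) lay above nerve array 3 (8.64). After cyclic loess, Grik2 was 10.2-fold higher in SKP-derived Schwann cells than in SKPs (log2 difference 3.35, SE 0.36, adjusted p = 0.000111) and 19.6-fold higher in nerve Schwann cells (4.3, SE 0.36, adjusted p = 3.21e-05). Grik5 was 3.21-fold higher in SKP-derived Schwann cells than in SKPs (1.68, SE 0.19, adjusted p = 0.000139) and 5.58-fold higher in nerve Schwann cells (2.48, SE 0.19, adjusted p = 1.91e-05).

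Grik3, which like Grik2 can form a channel alone, was called higher than in SKPs in nerve Schwann cells. Its deposited level was 6.42, 5.82 and 5.18 in SKP-derived Schwann cells and 8.16, 7.91 and 7.88 in nerve Schwann cells, against 5.09, 4.89 and 5.07 in SKPs. The nerve arrays stood well apart, while the lowest SKP-derived array came close to the SKP arrays. After cyclic loess the gene was 4.99-fold higher in nerve Schwann cells than in SKPs (log2 difference 2.32, SE 0.25, adjusted p = 0.000107). In SKP-derived Schwann cells the difference of 0.69 (SE 0.25, adjusted p = 0.0504) missed the threshold, though it passed as deposited (0.79, SE 0.27, adjusted p = 0.0384).

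Grik4 went the other way in SKP-derived Schwann cells, at 5.13, 5.33 and 5 in SKP-derived and 5.71, 5.71 and 5.66 in nerve Schwann cells, against 5.77, 5.88 and 5.48 in SKPs as deposited. It was called lower in SKP-derived Schwann cells (log2 difference -0.67 after cyclic loess, SE 0.12, adjusted p = 0.00196). In nerve Schwann cells its difference from SKPs was -0.01 as deposited (adjusted p = 0.942) and -0.77 after cyclic loess (adjusted p = 0.000861), so that the call depends on the scaling. Grik1 was called in no comparison, with cyclic loess differences from SKPs of -0.01 in SKP-derived and 0.32 in nerve Schwann cells (adjusted p = 0.938 and 0.0388), of which the second did not pass on all 4 scalings.

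The promoters of these kainate subunit genes and of 2 genes that were lower in both kinds of Schwann cell are printed because their transcripts moved in opposite directions. Each stretch holds 250 bases before and 50 after the start of the gene, from RefSeq with assembly GRCr8, and runs 5′ to 3′ on the strand of the gene. The capitals mark matches, on either strand, to the Sox core ACAANG, which Sox10 and its relatives bind, or to the GC box GGGCGG.
Grik2 promoter, chr20:54415234-54415533, minus strand: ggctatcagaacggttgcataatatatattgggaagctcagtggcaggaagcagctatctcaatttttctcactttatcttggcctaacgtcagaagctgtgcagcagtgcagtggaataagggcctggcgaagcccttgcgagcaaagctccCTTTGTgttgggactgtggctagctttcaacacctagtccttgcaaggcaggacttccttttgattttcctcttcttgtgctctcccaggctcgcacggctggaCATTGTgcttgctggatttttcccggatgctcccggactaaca
Grik3 promoter, chr5:143052192-143052491, plus strand: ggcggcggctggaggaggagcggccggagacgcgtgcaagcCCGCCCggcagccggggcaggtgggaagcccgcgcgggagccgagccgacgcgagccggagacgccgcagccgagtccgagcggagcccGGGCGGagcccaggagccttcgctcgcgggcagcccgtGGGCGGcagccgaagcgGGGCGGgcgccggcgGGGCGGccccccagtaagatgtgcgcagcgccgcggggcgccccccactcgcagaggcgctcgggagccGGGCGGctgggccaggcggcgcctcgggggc
Grik5 promoter, chr1:89794860-89795159, minus strand: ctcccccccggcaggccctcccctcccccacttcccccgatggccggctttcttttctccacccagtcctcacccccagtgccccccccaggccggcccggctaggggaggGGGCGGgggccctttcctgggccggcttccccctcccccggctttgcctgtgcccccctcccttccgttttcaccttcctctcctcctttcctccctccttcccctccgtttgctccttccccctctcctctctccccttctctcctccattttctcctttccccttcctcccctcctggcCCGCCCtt
Glrb promoter, chr2:168505565-168505864, minus strand: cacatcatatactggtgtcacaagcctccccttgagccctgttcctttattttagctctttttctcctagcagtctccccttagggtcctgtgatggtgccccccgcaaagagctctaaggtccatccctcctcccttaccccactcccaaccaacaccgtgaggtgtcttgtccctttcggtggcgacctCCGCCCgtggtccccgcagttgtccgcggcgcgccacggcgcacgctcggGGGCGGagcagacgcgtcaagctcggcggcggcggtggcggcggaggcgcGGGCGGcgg
Gabre promoter, chrX:155120672-155120971, minus strand: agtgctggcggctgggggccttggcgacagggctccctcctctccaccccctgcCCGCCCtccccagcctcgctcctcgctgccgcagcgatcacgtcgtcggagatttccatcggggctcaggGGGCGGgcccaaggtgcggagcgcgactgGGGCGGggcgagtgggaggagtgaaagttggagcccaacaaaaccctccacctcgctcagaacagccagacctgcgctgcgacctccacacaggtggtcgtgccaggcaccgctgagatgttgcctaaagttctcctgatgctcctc

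The letters differed among the 3 kainate genes that rose in nerve Schwann cells. The Grik2 stretch held 2 matches to the Sox core and 0 to the GC box, while those of Grik3 and Grik5 held 0 to the Sox core and 6 and 2 to the GC box. The stretches of Glrb and Gabre, both lower in Schwann cells, held 3 GC boxes each and 0 Sox cores. Of the 79 receptor genes, 58 had a promoter in the table, of which 18 (31%) held a Sox core and 27 (46.6%) a GC box, beside 41.5% and 34.9% of all 27457 promoters of this length. The AP-1 letters TGANTCA were in 0 of the 58 and in 7.33% of all promoters. The pieces TTCAGCACC and GGACAGC of the site of Rest, a repressor of neuronal genes, were in 0 and 4 (6.9%) of the 58, beside 0.379% and 6.64% of all. Both strands were searched, and a match is a description of the letters in this window.

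AMPA receptors carry most fast glutamate signals in the brain, and the edited Gria2 subunit keeps calcium out of the channel. None of the 4 genes was called in any comparison, but Gria2 and Gria3 varied. Gria2 stood at 7.88, 7.74 and 6.39 in SKP-derived Schwann cells and 5.3, 5.3 and 5.54 in nerve Schwann cells, against 5.8, 4.61 and 8.49 in SKPs as deposited. The SKP-derived arrays lay above all nerve arrays, and the SKP arrays ran from below the nerve arrays to above every other array. The difference, SKP-derived minus nerve Schwann cells, was 1.95 as deposited (SE 0.82, adjusted p = 0.0783) and 2.48 after cyclic loess (SE 0.83, adjusted p = 0.152). Without SKP array 3, whose spread enters the shared error, the same 1.95 had an adjusted p of 0.00631. Gria3 stood at 7.57, 8.84 and 8.61 in SKP-derived Schwann cells and 7.77, 7.7 and 7.2 in nerve Schwann cells, against 8.46, 7.73 and 7.88 in SKPs, and its difference, SKP-derived minus nerve, was 0.79 (SE 0.33, adjusted p = 0.0816). Without SKP-derived array 1 that difference was 1.17 (adjusted p = 0.0134). Gria1 and Gria4 differed from SKPs by at most 0.15 after cyclic loess.

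Metabotropic glutamate receptors act through G proteins and tune release and excitability. Of the 7 genes, Grm4 was called higher in both kinds of Schwann cell and Grm3 in nerve Schwann cells, both of them receptors that lower cyclic AMP. Grm4 stood at 6.73, 6.91 and 6.27 in SKP-derived Schwann cells and 7.28, 7.14 and 7.19 in nerve Schwann cells, against 5.85, 6.03 and 6.17 in SKPs as deposited, with no overlap between groups. After cyclic loess the SKP-derived arrays (6.87, 7.05 and 6.48) and the nerve arrays (6.95, 6.82 and 6.87) overlapped, and both lay above the SKP arrays (6.09, 6.25 and 6.42). Its cyclic loess difference from SKPs was 0.55 (SE 0.16, adjusted p = 0.0231) in SKP-derived and 0.63 (SE 0.16, adjusted p = 0.0114) in nerve Schwann cells. Grm3 differed from SKPs by 0.38 in nerve Schwann cells (SE 0.11, adjusted p = 0.0215) and by 0.26 in SKP-derived Schwann cells (SE 0.11, adjusted p = 0.0922). The delta subunit gene Grid1 differed by 0 and 0.13, and its second feature was not used.

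GABA-A receptors are chloride channels built from 5 subunits, most often alpha, beta and gamma. Among the 16 genes the beta subunit gene Gabrb2 was called higher in both kinds of Schwann cell, and the alpha and epsilon subunit genes Gabra2 and Gabre were called lower in both. Gabrb2 stood at 6.38, 6.62 and 5.22 in SKP-derived Schwann cells and 7.09, 7.17 and 7.36 in nerve Schwann cells, against 5.12, 5.18 and 4.6 in SKPs as deposited. After cyclic loess it was 2.95-fold higher in nerve Schwann cells than in SKPs (log2 difference 1.56, SE 0.3, adjusted p = 0.0026), and it was higher by 1 in SKP-derived Schwann cells (SE 0.3, adjusted p = 0.025). Gabrb1 and Gabrq, which encode a beta and the theta subunit, were called higher in nerve Schwann cells only among the comparisons with SKPs, by 0.62 each after cyclic loess. Their adjusted p-values in SKP-derived Schwann cells were 0.597 and 0.0868, and neither was called in SKP-derived against nerve Schwann cells (adjusted p = 0.15 and 0.499 after cyclic loess). Gabrb1 had the same deposited value, 5.12, in all 3 nerve arrays.

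Gabra2 stood at 4.8, 5.46 and 4.59 in SKP-derived Schwann cells and 4.61, 4.98 and 5.23 in nerve Schwann cells, against 7.28, 6.22 and 9.13 in SKPs. Gabre stood at 4.89, 5.88 and 5.19 in SKP-derived Schwann cells and 5.63, 5.48 and 5.67 in nerve Schwann cells, against 7.53, 7.69 and 8.73 in SKPs. In both genes the kinds of Schwann cell overlapped each other and lay below every SKP array, of which array 3 was the highest. After cyclic loess Gabre was 6.82-fold lower in SKP-derived Schwann cells than in SKPs (log2 difference -2.77, SE 0.34, adjusted p = 0.000231) and 8.18-fold lower in nerve Schwann cells (-3.03, SE 0.34, adjusted p = 0.000131). Gabra2 was 6.55-fold lower in SKP-derived Schwann cells than in SKPs (-2.71, SE 0.62, adjusted p = 0.00692), and its difference in nerve Schwann cells was -3.32 (SE 0.62, adjusted p = 0.00219). Without SKP array 3 the Gabra2 difference was -1.9 in SKP-derived (adjusted p = 0.00299) and -2.51 in nerve Schwann cells (adjusted p = 0.000663).

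Glycine receptors are the other family of chloride channels, with alpha subunits that bind glycine and the beta subunit Glrb that anchors them to gephyrin. Glrb was the 1 of 4 genes that was called, and it was lower in both kinds of Schwann cell. It stood at 5.16, 5.8 and 5.25 in SKP-derived Schwann cells and 6.01, 5.65 and 5.75 in nerve Schwann cells, against 8.32, 7.24 and 9.63 in SKPs. No Schwann cell array reached the SKP arrays. After cyclic loess Glrb was 8.41-fold lower in SKP-derived Schwann cells than in SKPs (log2 difference -3.07, SE 0.5, adjusted p = 0.00115) and 9.05-fold lower in nerve Schwann cells (-3.18, SE 0.5, adjusted p = 0.000874). Without SKP array 3 the difference was -2.45 in SKP-derived (adjusted p = 0.000497) and -2.55 in nerve Schwann cells (adjusted p = 0.00037). The alpha subunit genes Glra1, Glra2 and Glra3 differed by at most 0.27 after cyclic loess in any comparison, so the beta gene moved without a called change of an alpha gene.

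Muscarinic receptors bind acetylcholine and act through G proteins, the odd-numbered members through phospholipase C and the even-numbered ones by lowering cyclic AMP. Of the 5 genes, Chrm1, Chrm3 and Chrm5, all of the first kind, were called higher in both kinds of Schwann cell, and Chrm4 was called higher in nerve Schwann cells. Chrm1 stood at 7.47, 7.41 and 7.5 in SKP-derived Schwann cells and 7.88, 7.85 and 7.95 in nerve Schwann cells, against 6.64, 6.64 and 6.82 in SKPs as deposited. After cyclic loess the levels of both kinds of Schwann cell met, at 7.63, 7.62 and 7.62 in SKP-derived and 7.66, 7.6 and 7.68 in nerve Schwann cells, against 6.78, 6.81 and 6.96 in SKPs. The Chrm1 difference from SKPs was then 0.77 in SKP-derived (SE 0.1, adjusted p = 0.000392) and 0.8 in nerve Schwann cells (SE 0.1, adjusted p = 0.000288). Chrm3 differed from SKPs by 0.81 in SKP-derived (adjusted p = 0.00548) and 0.94 in nerve Schwann cells (adjusted p = 0.00226). Chrm5 differed by 0.51 in SKP-derived (adjusted p = 0.0112) and 0.55 in nerve Schwann cells (adjusted p = 0.00701). Chrm4 differed by 0.41 in SKP-derived (adjusted p = 0.0721) and 0.46 in nerve Schwann cells (adjusted p = 0.0444), and Chrm2 was not called. After cyclic loess all these differences are under 2-fold.

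Nicotinic receptors are acetylcholine-gated cation channels of muscle, neurons and other cells. The alpha subunit gene of the muscle receptor, Chrna1, was called lower in both kinds of Schwann cell, at 5.59, 6.53 and 5.87 in SKP-derived and 6.45, 6.6 and 6.14 in nerve Schwann cells, against 8.1, 8.6 and 6.42 in SKPs as deposited. SKP array 3 lay within the range of the Schwann cell arrays and the other SKP arrays above it. After cyclic loess Chrna1 was 3.42-fold lower in SKP-derived Schwann cells than in SKPs (log2 difference -1.77, SE 0.49, adjusted p = 0.017) and 3.61-fold lower in nerve Schwann cells (-1.85, SE 0.49, adjusted p = 0.0125). Without SKP array 3 the differences were -2.41 and -2.49 (adjusted p = 0.000308 and 0.000245). The call in SKP-derived Schwann cells was lost after cyclic loess without SKP array 1, SKP array 2 or SKP-derived array 1 (adjusted p = 0.0586, 0.0561 and 0.061). In nerve Schwann cells the call was lost as deposited without any 1 nerve array, SKP array 1, SKP array 2 or SKP-derived array 3, with adjusted p between 0.0548 and 0.142. Chrna10 was called higher in both, by 0.54 and 0.58 after cyclic loess, and Chrna6 in nerve Schwann cells, by 0.6. The other 13 nicotinic genes were called in no comparison, the muscle subunit genes Chrnb1, Chrnd, Chrne and Chrng among them.

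Serotonin receptors act through G proteins, apart from the channel subunits Htr3a and Htr3b. The largest cyclic loess difference from SKPs in the family was that of Htr2a, a receptor coupled to phospholipase C, which was called lower in both kinds of Schwann cell. It stood at 4.71, 6.96 and 5.73 in SKP-derived Schwann cells and 6.32, 7.62 and 5.78 in nerve Schwann cells, against 9.91, 10.6 and 9.54 in SKPs as deposited. The Schwann cell groups overlapped each other, with array 2 the highest of each, and lay below all SKP arrays. After cyclic loess Htr2a was 18.3-fold lower in SKP-derived Schwann cells than in SKPs (log2 difference -4.19, SE 0.62, adjusted p = 0.000693) and 14.1-fold lower in nerve Schwann cells (-3.81, SE 0.62, adjusted p = 0.00108). Without SKP-derived array 2 the first was -4.8 (adjusted p = 0.000381).

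Htr2b, a close relative of Htr2a, was called lower in SKP-derived Schwann cells, at 4.63, 4.75 and 4.36 in SKP-derived and 5.11, 5.01 and 4.91 in nerve Schwann cells, against 5.11, 5.69 and 8.04 in SKPs as deposited. SKP array 3 stood alone at the top, and the lowest SKP array equalled the highest nerve array. The difference in SKP-derived Schwann cells was -1.7 (SE 0.6, adjusted p = 0.0456), and without SKP array 3 it was -0.82 (adjusted p = 0.0104). Without SKP array 1 it was -2.29 (adjusted p = 0.0128). Leaving out any 1 of the Schwann cell arrays, or SKP array 2, ended the call, with adjusted p-values up to 0.113. The Htr2b difference of nerve Schwann cells from SKPs was -1.27 as deposited (adjusted p = 0.0874) and -2.03 after cyclic loess (SE 0.61, adjusted p = 0.0227). Between both kinds of Schwann cell it was -0.43 as deposited (adjusted p = 0.575) and 0.23 after cyclic loess (adjusted p = 0.868), so no difference between them was shown. Htr4 and Htr1a were called higher in nerve Schwann cells than in SKPs, by 0.56 and 0.3 after cyclic loess (adjusted p = 0.00219 and 0.0362). Htr1a had the same deposited value, 6.06, in all 3 nerve arrays. The remaining 10 serotonin receptor genes were called in no comparison.

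**Figure D3:**
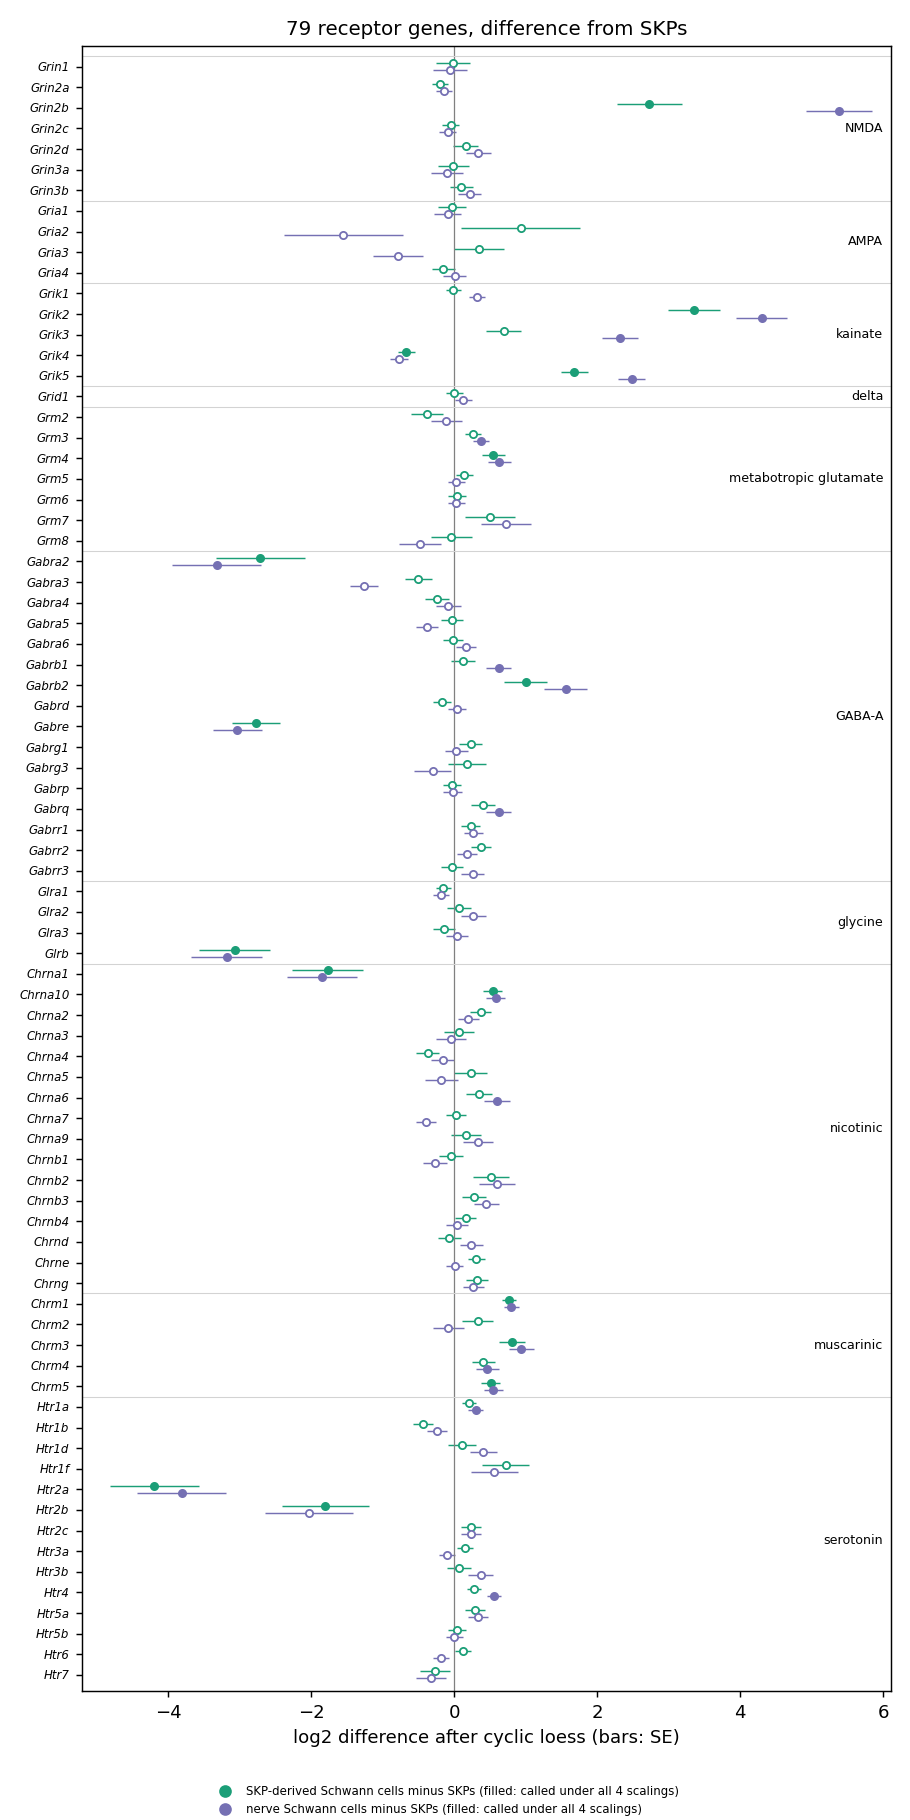
Log2 difference from SKPs after cyclic loess for each of the 79 receptor genes, by family, in SKP-derived (green) and nerve (purple) Schwann cells; bars are standard errors and filled points mark genes called under all 4 scalings. Most points lie within 1 of zero. Grin2b, Grik2, Grik5 and Gabrb2 reach farthest to the right, as does Grik3 in nerve Schwann cells, while Htr2a, Glrb, Gabra2, Gabre, Htr2b and Chrna1 lie far to the left in both.

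Of the 79 receptor genes, 55 were called in no comparison, and in 52 of these the largest cyclic loess difference of the 3 comparisons was under 1. The same counts were not made over all genes, so they do not show whether the receptors changed less than other genes. The exceptions were Gria2 (2.48), Gria3 (1.13) and Gabra3 (1.26). Gabra3 stood at 5.44, 5.09 and 4.8 in SKP-derived Schwann cells and 4.42, 4.53 and 4.12 in nerve Schwann cells, against 5.68, 5.75 and 5.4 in SKPs after cyclic loess. Its nerve difference from SKPs passed after cyclic loess (adjusted p = 0.000712) and missed as deposited (-0.52, adjusted p = 0.0594). Most receptor genes had low array values, as 4 of the 79 (Chrm1, Gria3, Grik5 and Htr2a) reached the median of the mean levels of all genes.

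SKP-derived and nerve Schwann cells were then compared directly. Grin2b and Grik3 were called, both lower in SKP-derived Schwann cells. The Grin2b difference was -3.09 as deposited (SE 0.46, adjusted p = 0.00235) and -2.65 after cyclic loess (SE 0.46, adjusted p = 0.0351). The Grik3 difference was -2.17 as deposited (SE 0.27, adjusted p = 0.00192) and -1.63 after cyclic loess (SE 0.25, adjusted p = 0.0238), which is 3.1-fold. After cyclic loess both calls were lost without any 1 of the 3 nerve arrays, with adjusted p between 0.135 and 0.174 for Grin2b and between 0.0975 and 0.12 for Grik3, and without SKP-derived array 3 (adjusted p = 0.0951 and 0.0539). The Grin2b call was also lost without SKP array 2 (adjusted p = 0.0565) and the Grik3 call without SKP-derived array 2 (adjusted p = 0.0662). As deposited both calls were kept whichever array was left out.

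The other kainate genes that were higher in Schwann cells lay lower in SKP-derived than in nerve Schwann cells, with calls that the scaling ended. Grik2 differed by -1.38 as deposited (adjusted p = 0.0141) and by -0.94 after cyclic loess (SE 0.36, adjusted p = 0.189), which became -1.41 (adjusted p = 0.028) without SKP-derived array 1. Grik5 differed by -1.13 as deposited (adjusted p = 0.00387) and by -0.8 after cyclic loess (SE 0.19, adjusted p = 0.0696). Gabre, Glrb, Gabra2, Htr2a and Chrna1, the genes lower than in SKPs, differed between both kinds of Schwann cell by 0.26 (SE 0.34), 0.11 (SE 0.5), 0.61 (SE 0.62), -0.38 (SE 0.62) and 0.08 (SE 0.49) after cyclic loess. None of these passed, which does not show that both kinds of Schwann cell were alike in them.

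**Figure D4:**
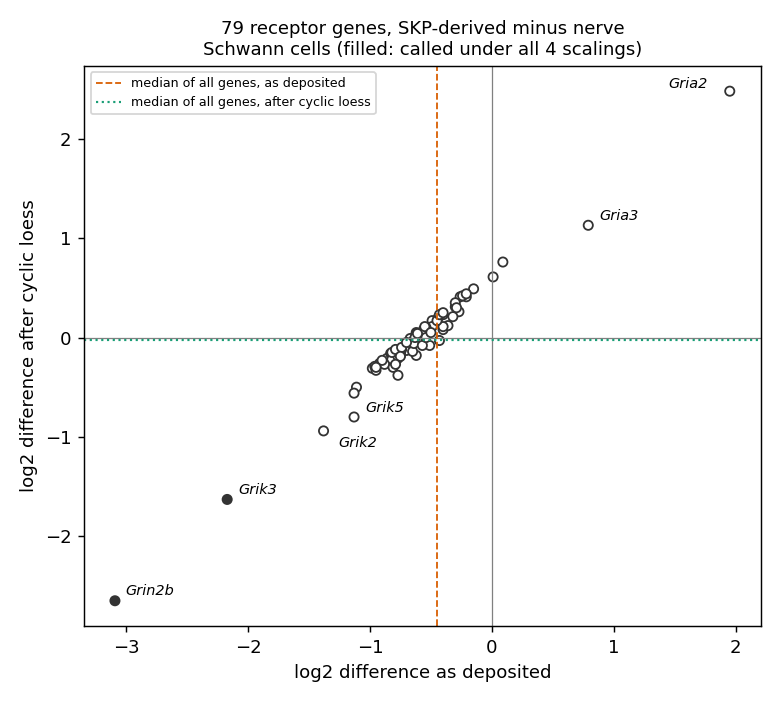
Log2 difference, SKP-derived minus nerve Schwann cells, of each of the 79 receptor genes as deposited (horizontal axis) and after cyclic loess (vertical axis); filled points were called under all 4 scalings, and the dashed and dotted lines mark the medians of all genes. The cloud is centred near -0.62 on the horizontal axis and near -0.04 on the vertical one, with Grin2b and Grik3 at the lower left and Gria2 at the upper right.

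Genes that work with these receptors were counted in 3 further lists. Among 23 measured genes of other transmitter receptors that act through G proteins, 5 were called higher and 2 lower in SKP-derived Schwann cells than in SKPs, and 5 higher and 0 lower in nerve Schwann cells. That is 21.7% and 8.7% in SKP-derived Schwann cells, beside 14.3% and 21.4% of all genes, and 21.7% and 0% in nerve Schwann cells, beside 15.3% and 14.9% of all genes. Gabbr1, a subunit of the GABA-B receptor, stood at 9.57, 9.18 and 10.09 in SKP-derived Schwann cells and 10.28, 10.25 and 10.07 in nerve Schwann cells, against 8.19, 8.24 and 8.68 in SKPs as deposited. Every Schwann cell array lay above the SKP arrays, and after cyclic loess Gabbr1 was 2.3-fold higher in SKP-derived (adjusted p = 0.0011) and 2.99-fold higher in nerve Schwann cells (adjusted p = 0.000226). Its partner subunit gene Gabbr2 differed from SKPs by 0.5 and 0.21 and was not called. Oprk1, the kappa opioid receptor, was 2.28-fold higher in SKP-derived Schwann cells than in SKPs (adjusted p = 0.0354), and its difference in nerve Schwann cells was 1.69 as deposited (adjusted p = 0.00378) and 0.96 after cyclic loess (adjusted p = 0.0705).

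Among 32 measured scaffold and auxiliary subunit genes, 6 were called higher and 6 lower in SKP-derived Schwann cells than in SKPs, and 8 higher and 5 lower in nerve Schwann cells. The shares were 18.8% and 18.8% in SKP-derived Schwann cells, beside 14.3% and 21.4% of all genes. In nerve Schwann cells they were 25% and 15.6%, beside 15.3% and 14.9% of all genes. Nlgn3, an adhesion protein of synapses and glia, was 9.44-fold higher in SKP-derived (adjusted p = 0.000123) and 14-fold higher in nerve Schwann cells (adjusted p = 5.13e-05) after cyclic loess. Cacng4 and Cnih2 encode proteins that accompany AMPA receptors. Cacng4 stood at 8.57, 7.54 and 8.53 in SKP-derived Schwann cells and 9.33, 9.26 and 9.39 in nerve Schwann cells, against 5.83, 6.05 and 5.95 in SKPs as deposited. Cnih2 stood at 10.3, 11.1 and 11.19 in SKP-derived Schwann cells and 10.19, 10.06 and 9.24 in nerve Schwann cells, against 8.4, 8.15 and 6.38 in SKPs. Both were thus above all SKP arrays in every Schwann cell array, although no AMPA subunit gene was called. Grip1, which binds AMPA receptor tails, was 5.45-fold lower in SKP-derived and 5.08-fold lower in nerve Schwann cells, and Homer2, which binds group I metabotropic receptors, was called lower in both, by -2.11 on the log2 scale in SKP-derived (adjusted p = 1.39e-05) and -2.38 in nerve Schwann cells (adjusted p = 7.52e-06) after cyclic loess. Neto2, an auxiliary subunit of kainate receptors singled out after its values were seen, was higher by 1.17 in SKP-derived (adjusted p = 0.0119) and by 1.78 in nerve Schwann cells (adjusted p = 0.00129). Neto1, the other auxiliary subunit of kainate receptors, went the opposite way. It was called lower in SKP-derived Schwann cells (-1.15 after cyclic loess, adjusted p = 0.0137), and in nerve Schwann cells its difference was -1.12 after cyclic loess (adjusted p = 0.0139) and -0.38 as deposited (adjusted p = 0.277). Gphn, the gephyrin that anchors Glrb and was likewise singled out, was higher by 2.07 in SKP-derived (adjusted p = 5.09e-05) and by 1.82 in nerve Schwann cells (adjusted p = 9.15e-05), where Glrb was lower.

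Of 12 measured genes of transmitter synthesis and breakdown, 2 were called higher and 1 lower in SKP-derived Schwann cells, and 0 higher and 1 lower in nerve Schwann cells. The shares were 16.7% and 8.33% in SKP-derived Schwann cells, beside 14.3% and 21.4% of all genes, and 0% and 8.33% in nerve Schwann cells, beside 15.3% and 14.9%. Abat, which breaks down GABA, was 2.95-fold higher in SKP-derived Schwann cells than in SKPs after cyclic loess (adjusted p = 0.00233), at 7.78, 6.96 and 8.16 as deposited, against 6.36, 6.1 and 5.65 in SKPs. Its difference in nerve Schwann cells was 1.03 as deposited (adjusted p = 0.0111) and 0.54 after cyclic loess (adjusted p = 0.15). Outside the receptors but within the symbol rule, Htra1 was called lower in both kinds of Schwann cell (-1.36 and -1.16 after cyclic loess) and Grid2ip higher in SKP-derived Schwann cells (0.45).

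Markers of other cells moved with some of these genes, and their part in the results was not tested. Over the 3 arrays of each kind of Schwann cell, Htr2a stood in the same order as the mean of 10 dermal mesenchyme and SKP markers such as Prrx1 and Pdgfra. After cyclic loess that mean was 7.96, 9.81 and 8.83 in SKP-derived Schwann cells and 8.61, 9.23 and 8.09 in nerve Schwann cells, against 12.37, 12.33 and 10.38 in SKPs, all as log2 levels. Htr2a was 4.87, 7.18 and 5.83 in SKP-derived Schwann cells and 6.12, 7.38 and 5.52 in nerve Schwann cells, against 10.04, 10.76 and 9.66 in SKPs. The markers did not all share the order of their mean. In SKP-derived Schwann cells Col1a1 (11.84, 10.9 and 11.15) and Col1a2 (11.26, 10.73 and 10.81) were lowest in array 2. Crabp1 (8.45, 9.62 and 11.44) was highest in array 3. In nerve Schwann cells Col1a1 (12.02, 12.02 and 12.21) and Col1a2 (11.84, 11.82 and 11.9) were highest in array 3, where Htr2a was lowest. Of the 10 markers, 8 were called lower in SKP-derived and 9 in nerve Schwann cells than in SKPs. Grin2b in SKP-derived Schwann cells, at 8.22, 6 and 7.07, stood in the order of the Schwann cell marker mean of 11.37, 10.46 and 10.92. The lowest SKP-derived array by both measures, array 2, was also the highest by the mean of the mesenchyme markers. Sox10, Ngfr, Foxd3 and L1cam followed the Grin2b order in SKP-derived Schwann cells, while S100b, Erbb3, Cdh19 and Pmp2 did not. In nerve Schwann cells Grin2b (9.89, 9.86 and 9.49) did not follow the order of the Schwann cell marker mean (11.3, 11.14 and 11.26).

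**Figure D5:**
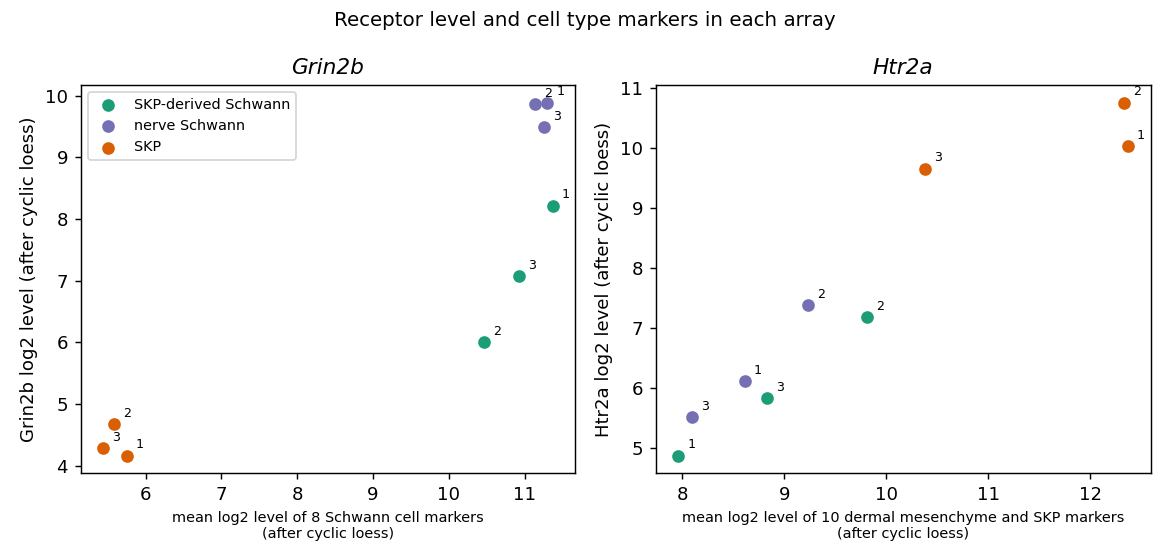
Left, Grin2b level against the mean level of 8 Schwann cell markers; right, Htr2a level against the mean level of 10 dermal mesenchyme and SKP markers, both as log2 levels after cyclic loess, with 1 point per array and its replicate number. In SKP-derived Schwann cells array 2 has the lowest Grin2b (6) and the highest Htr2a (7.18), and the nerve arrays lie at 9.49 to 9.89 for Grin2b at Schwann marker means near that of SKP-derived array 1.

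The genes for which SKP array 3 was highest, Glrb, Gabra2, Gabre, Htr2b and Gria2, went with other features of that array. Its melanocyte marker mean over 4 genes was 7.05, against 6.21 and 6.48 in the other SKP arrays, with Mlana at 10.16 against 6.95 and 7.14. The other melanocyte markers did not all share this. In SKP array 3 Tyrp1 was also highest (5.38 against 4.72 and 4.89). Mitf was lower there (8.86 against 9.82 and 9.8), and Tyr lay between the other SKP arrays (3.81 against 3.37 and 4.1). The melanocyte means were 6.03 to 6.94 in SKP-derived and 5.46 to 5.58 in nerve Schwann cells. The macrophage marker mean over 10 genes was 5.39 to 5.6 in SKP-derived and 5.52 to 5.62 in nerve Schwann cells, against 8.03, 6.62 and 5.81 in SKPs, so it was lowest in SKP array 3. Of 12 neuron markers, 3 (Nefl, Map2 and Syn1) were called higher in both kinds of Schwann cell, and 3 were called lower in SKP-derived Schwann cells. The neuron means were 6.64 to 7.32 in SKP-derived and 6.41 to 6.7 in nerve Schwann cells, against 6.21, 5.99 and 6.56 in SKPs. Rbfox3 and Elavl4, which mark neurons, were called higher in neither kind of Schwann cell. Among SKPs the neuron mean was highest in array 3, with Nefm at 9.38 against 6.22 and 6.07. Snap25 (7.78 against 5.17 and 5.58), Tubb3 and Stmn2 were also highest in it, while Nefl, Syn1 and Rbfox3 were lowest. The other neuron markers of SKP array 3 lay between those of the other SKP arrays. The mesenchyme marker mean of SKP array 3 was 10.38, against 12.37 and 12.33. For Chrna1, the mean of 8 skeletal muscle markers was 6.08 to 6.3 in SKP-derived and 6.23 to 6.25 in nerve Schwann cells, against 6.36 to 6.42 in SKPs, and the markers differed in direction. Tnnt3 was 5.44 to 5.88 in the Schwann cell arrays, against 8.03, 7.81 and 7.31 in SKPs, and was called lower in both kinds of Schwann cell. Acta1 and Ckm were called higher in nerve Schwann cells, by 0.72 and 0.61 after cyclic loess (adjusted p = 0.00785 and 0.00665). The means of keratinocyte (5), endothelial (7) and smooth muscle (6) markers stayed between 5.58 and 5.75, 5.33 and 5.7, and 6.44 and 6.87 over all 9 arrays. Single markers of these lists were called, namely Tek in both kinds of Schwann cell (higher by 0.82 in SKP-derived and 1.92 in nerve after cyclic loess), Pecam1 in nerve (higher by 0.49), and Tagln (higher by 1.47) and Myh11 (-0.78) in SKP-derived Schwann cells.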

How the data were processed

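The deposited values are log2 expression values for 29214 features, made by the authors. The submitters' processing notes name RMA and Affymetrix Expression Console. The sources used here give no version, no genome build and no word on whether all 9 arrays were normalised together. Features were named from the platform annotation (15310 have 1 symbol, 323 several, 13581 none). Features with 1 symbol were used, with the highest mean over all arrays standing for a gene, which left 14506 genes. All 83 genes of the symbol rule were found in RefSeq by Entrez identifier.

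Groups were taken from the labels' cell type. Differences were fitted over all 9 arrays with limma 3.58.1 (lmFit, eBayes) in R 4.3.3, on the values as deposited and after median centring, cyclic loess and quantile normalisation, and tested on simulated data. Benjamini-Hochberg adjustment ran over all genes within each comparison, and every adjusted p comes from these fits. Precision is limited by the number of arrays.

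The receptor genes named with full values are Grin2b and, per comparison, up to 12 called under all 4 scalings with a log2 difference of at least 1 both as deposited and after cyclic loess. Up to 4 genes of each related list were named by the same rule, and genes outside it illustrate a family. The members, lists, scalings and rule were chosen with earlier results of these data known. Alternatives included a low-value filter, a fit of only the groups compared, a mean of features, trended variances, a replicate block and leaving out each array. The block and left-out arrays after cyclic loess were added later.

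Same-numbered arrays were checked for pairing. Their deviations correlated by -0.12 to 0.05 between SKP-derived Schwann cells and SKPs, where differently numbered arrays gave -0.09 to 0.08. Between nerve Schwann cells and SKPs the ranges were 0.04 to 0.19 and -0.16 to 0.12. Between both kinds of Schwann cell they were 0.07 to 0.29 and -0.27 to 0.18, with most differently numbered arrays negative. The labels do not say what the numbers mark, so they were not taken as pairs. These correlations do not settle whether they are.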

Additional observations from a re-analysis of the deposited data

Results flagged for a closer look

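The difference between kinds of Schwann cell under the same contrast with SKPs was tested directly for each receptor gene. Among the receptors, Grin2b and Grik3 differed under all 4 scalings. The Grin2b difference, SKP-derived minus nerve Schwann cells, was -3.09 as deposited, with each SKP-derived array below each nerve array. For Grik3 it was -2.17, again without overlap between the groups. Both kinds of Schwann cell were set against the same 3 SKP arrays, which also enter the shared estimate of the spread and the scalings that align all 9 arrays.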

How the results depend on the processing

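The counts of receptor genes passing limma's threshold as deposited moved with the scaling, the threshold, the samples fitted and the low-value filter. Shares over all genes are given above for as deposited, cyclic loess and all 4 scalings, and were not counted for the other settings. The counts below therefore do not show whether receptors moved more than other genes. For SKP-derived Schwann cells minus SKPs, the 15 higher became 9 under median centring, 9 under cyclic loess, 9 under quantile normalisation, 9 under all 4 scalings, 7 with only the groups compared, 6 at an adjusted p under 0.01, 4 with a 2-fold minimum and 2 with the low-value filter, and the 7 lower became 4 at 0.01 and 1 with the filter. For nerve Schwann cells minus SKPs, the 59 higher became 21 under median centring, 18 under cyclic loess or quantile normalisation, 17 under all 4 scalings, 27 with a 2-fold minimum and 2 with the filter, and the 5 lower became 10, 9 and 9 under the 3 other scalings and 1 with the filter. For SKP-derived minus nerve Schwann cells, the 52 lower became 2 under each other scaling and under all 4, 30 at 0.01, 6 with a 2-fold minimum and 1 with the filter, while the 0 higher became 1 (Gria2) with only the groups compared. The filter kept 4 of 79 receptor genes, which by its construction lowers the counts. With each array left out in turn, the deposited counts ran from 7 to 22 higher and 5 to 8 lower (SKP-derived Schwann cells minus SKPs), 51 to 64 and 4 to 6 (nerve Schwann cells minus SKPs), and 0 to 1 and 38 to 60 (SKP-derived minus nerve). The 7 arose without SKP-derived array 1 or 2, and 9 without nerve array 1. After cyclic loess they ran from 7 to 12 and 6 to 10, 12 to 20 and 7 to 10, and 0 to 1 and 0 to 3. The single receptor higher was Gria2 or Gria3, and 0 were lower without any 1 nerve array or SKP-derived array 3.

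With the replicate block, no receptor count moved by over 1.5 times as deposited (13 and 7, 60 and 6, 0 and 52), but after cyclic loess the 2 genes lower in SKP-derived than in nerve Schwann cells became 0 (adjusted p = 0.0788 for Grin2b and 0.0529 for Grik3), and the Htr2b call as deposited was lost (adjusted p = 0.0549). The labels do not say whether the numbers mark shared cultures, and the numbers were not taken as pairs. Over 24 differences of named genes, 0 of the alternatives reversed a direction, on either scale. As deposited 39 lost and 350 kept their side of the threshold, and after cyclic loess 21 lost, 3 gained and 216 kept it. The cause of the shifts was not tested. The low array values of most receptor genes and the tied nerve values limit what can be read from small differences.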
